A study of Mus musculus with 12 samples.

Results

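The AP-2 transcription factors are encoded in the mouse by 5 genes, Tfap2a, Tfap2b, Tfap2c, Tfap2d and Tfap2e. They were chosen by name as a gene family, with earlier results of these data known. Array probes were matched through their transcript accession, and 6 probes represented the family, 2 of them for Tfap2a. The array held 19751 named genes on 39429 probes, so the family made up 5 of 19751 genes. Whole female mouse embryos at embryonic day 9.5 (E9.5) were compared between 3 genotypes of Chd7, which encodes an ATP-dependent chromatin remodeller and is the gene of CHARGE syndrome. The groups were 4 wild-type embryos (Chd7+/+), 4 heterozygous embryos (Chd7Whi/+) and 4 homozygous embryos (Chd7Whi/Whi), with 1 one-colour Agilent array for each. All came from crosses of heterozygous parents of the whirligig line, carried on a mixed C3HeB/FeJ background, and each embryo was freed from its yolk sac. Per the labels the 4 embryos of each group were biological replicates. The allele is a germline one and is not limited to a tissue, and replicate numbers here only name arrays.

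AP-2 proteins bind DNA as dimers at GC-rich palindromes, through a helix-span-helix domain shared by the family. In the embryo Tfap2a acts in the surface ectoderm, the neural plate border and the neural crest, and is needed for closure of the head and face. Tfap2b is active in neural crest and its sympathetic and cardiac derivatives, Tfap2c in trophoblast, surface ectoderm and primordial germ cells, Tfap2d in the midbrain and Tfap2e in the olfactory system.

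The promoter sequences of Tfap2a and Tfap2b are shown first, because these are the genes with the best known crest roles and because the windows around their starts lacked the palindrome that AP-2 proteins bind. The 100 bases before each annotated start are given in lower case, 5′ to 3′ on the strand of the gene, from RefSeq on GRCm38.p6. They lie at chr13:40734921-40735020 (minus strand) and chr13:40733796-40733895 (minus strand) for the 2 starts of Tfap2a and at chr1:19211954-19212053 (plus strand) for Tfap2b.
Tfap2a, upstream start: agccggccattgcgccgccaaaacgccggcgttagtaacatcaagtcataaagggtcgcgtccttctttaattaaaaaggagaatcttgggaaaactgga
Tfap2a, downstream start: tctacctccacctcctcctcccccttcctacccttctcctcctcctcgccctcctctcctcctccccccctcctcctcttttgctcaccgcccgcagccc
Tfap2b: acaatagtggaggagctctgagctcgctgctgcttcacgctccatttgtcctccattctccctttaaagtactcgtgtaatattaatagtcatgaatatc
Of these stretches, 48% of bases were G or C before the upstream Tfap2a start, 67% before the downstream one and 43% before Tfap2b. The palindrome GCCNNNGGC, which reads the same on both strands, was searched in windows from 250 bases before to 50 bases after each start. Tfap2c was not searched, because the set of promoter windows held none for it. The palindrome was found in none of the windows of Tfap2a, Tfap2b, Tfap2d and Tfap2e, against 5013 of 27025 genes (18.5%) and 5450 of 32851 windows (16.6%). No match says only that these letters were not in these windows.

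Levels are given as scaled log2 signal, the log2 of an array's processed spot signal minus the log2 of the 75th percentile of that array, so that 0 is the 75th percentile and 1 unit is 2-fold. Levels of different probes are not compared, because probes differ in brightness. In homozygous embryos Tfap2c was 2.01-fold higher than in wild type, and none of the other 3 tested members passed. With limma and Benjamini-Hochberg adjustment over 22568 genes or identifiers, Tfap2c passed the threshold of 0.05 in homozygous minus wild type, and Tfap2a, Tfap2b and Tfap2e did not. Of all genes tested 1.35% passed in this comparison, 0.487% with higher and 0.864% with lower levels in homozygotes. Tfap2d was not tested, since testing required a probe to exceed its background clearly (Agilent's well-above-background mark) on the 4 arrays of some genotype. Before adjustment, 1 of the 4 tested members had a p under 0.05, against 17% of all genes.

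Tfap2c, the member that marks trophoblast, surface ectoderm and germ cells, was higher in homozygotes on every array. Its probe (A_51_P418820, transcript NM_009335) was well above background on all 12 arrays. In wild-type embryos 1 to 4 it read -1.39, -0.87, -1.11 and -1.39 scaled log2 signal, with a mean of -1.19 ± 0.25 (SD, n = 4). In heterozygotes it read -0.92, -0.70, -0.84 and -0.56, with a mean of -0.76 ± 0.16 (SD, n = 4). In homozygotes it read -0.26, -0.09, 0.05 and -0.44, with a mean of -0.18 ± 0.21 (SD, n = 4). The homozygous arrays thus lay above every heterozygous and every wild-type array, while wild-type replicate 2 lay above heterozygous replicate 1. Heterozygous and wild-type arrays overlapped for all 4 tested members, against 6.66% of all genes without overlap. On the linear scale of the processed signal the ranges were 565 to 751 in wild type, 699 to 812 in heterozygotes and 1173 to 1441 in homozygotes.

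The Tfap2c level in homozygotes exceeded that in wild type by 1.01 ± 0.15 log2 units (SE), a 2.01-fold difference with a 95% confidence interval of 1.61 to 2.51-fold (limma, adjusted p = 0.00655). It ranked at 66 of 22568 by p. Non-overlapping arrays in this comparison were found for 14.1% of all genes. In whole embryos more cells with Tfap2c and more Tfap2c RNA per cell cannot be told apart. In the heterozygotes the level was 0.43 ± 0.15 log2 units (SE) above wild type, 1.35-fold (interval 1.08 to 1.69), and this did not pass (limma, adjusted p = 0.252, unadjusted p = 0.0121). Homozygotes stood 0.57 ± 0.15 log2 units (SE) above heterozygotes, 1.49-fold (interval 1.19 to 1.86), again without passing (limma, adjusted p = 0.445), although their arrays did not overlap, as for 2.98% of all genes.

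The order of the 3 Tfap2c means followed the number of whirligig copies. The heterozygous mean was -0.07 ± 0.13 log2 units (SE) from the midpoint of the other genotypes (95% interval -0.35 to 0.21, limma adjusted p = 0.912). Of the 22568 genes tested, 18 (0.0798%) rose in copy order with no overlap between any pair of genotypes, and Tfap2c was not among them because of the wild-type replicate 2 value. Heterozygous values lay above those of wild type on the same slide in each case, by 0.58, 0.15 and 0.83 for slides 1 to 3, and homozygous values lay above both. The difference of homozygous minus wild type was 1.13, 0.90 and 1.20 log2 units on slides 1 to 3. No position on a slide held both heterozygous and wild-type arrays, so genotype and position cannot be told apart directly between them. The copy order, the midpoint contrast and the heterozygous differences within slides carry this limit.

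**Figure D1:**
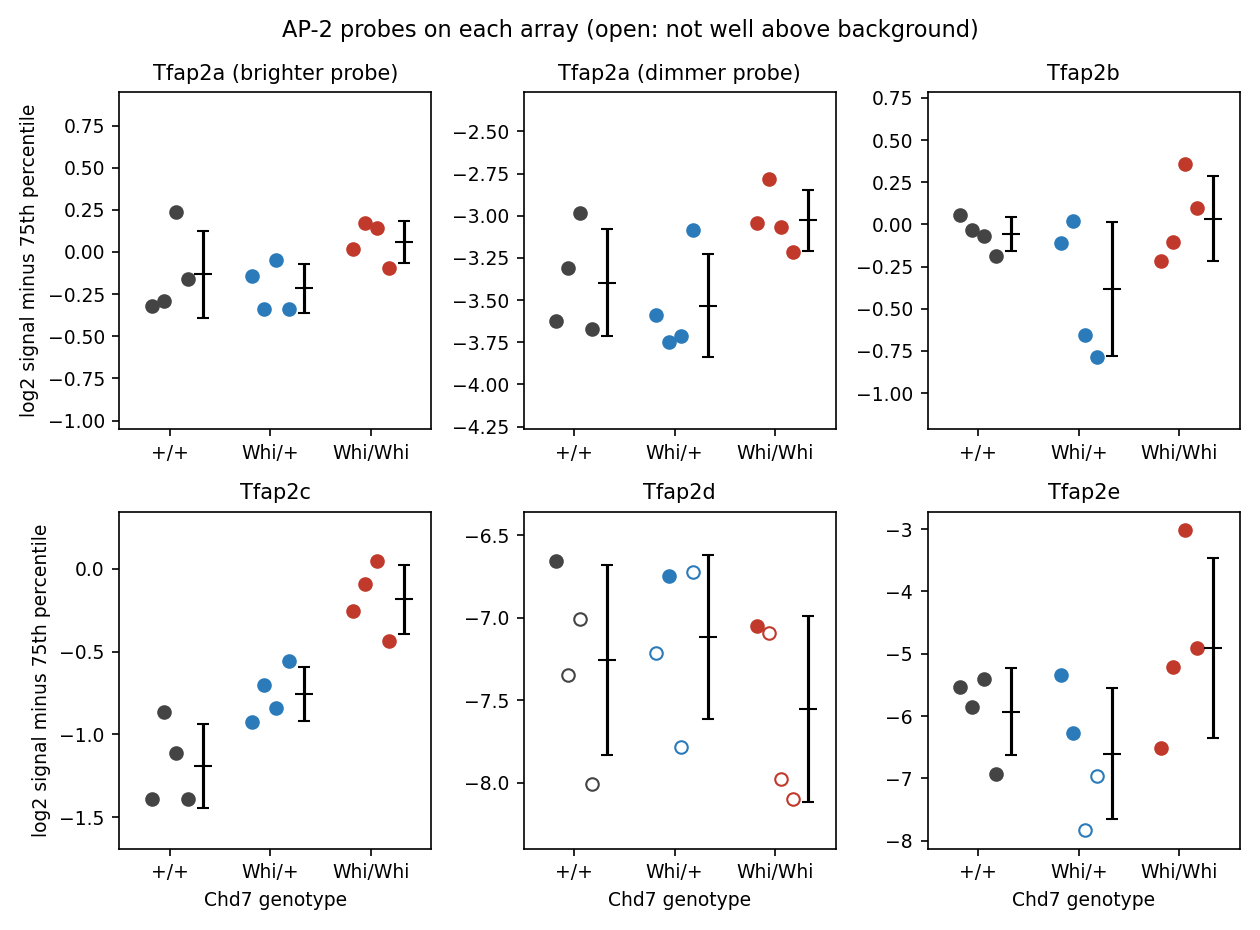
Scaled log2 signal (vertical axis) of the probes of Tfap2a, Tfap2b, Tfap2c, Tfap2d and Tfap2e on each of the 12 arrays, grouped by genotype, with mean and SD bars and open points for arrays not well above background. Tfap2c shows homozygous arrays from -0.44 to 0.05 above wild-type arrays from -1.39 to -0.87, while the other probes overlap between homozygotes and wild type.

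Position on the slide was unevenly divided between genotypes, since position 1 held 3 arrays, all wild type. Heterozygous arrays lay only at positions 2 and 4, where there was no wild-type array. The only position with both homozygous and wild-type arrays was position 3, where wild-type replicate 3 read -1.11 and homozygous replicates 1 and 3 read -0.26 and 0.05, a mean difference of 1.01 log2 units. With position as a block the Tfap2c difference was 1.01 ± 0.28 log2 units (SE), and it no longer passed (limma, adjusted p = 0.674). Without the 3 wild-type arrays of position 1 it was 0.93 (limma, adjusted p = 0.205), with 1 wild-type array left. Leaving out each array in turn kept the call on all 12 occasions, with differences from 0.93 to 1.11 and adjusted p from 0.00574 to 0.0304. Over all genes, position as a block took the calls in homozygous minus wild type from 305 to 20, with 3 higher and 17 lower. The rises and falls of other genes given below are from the fit without this block, so the uneven positions limit them too.

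**Figure D2:**
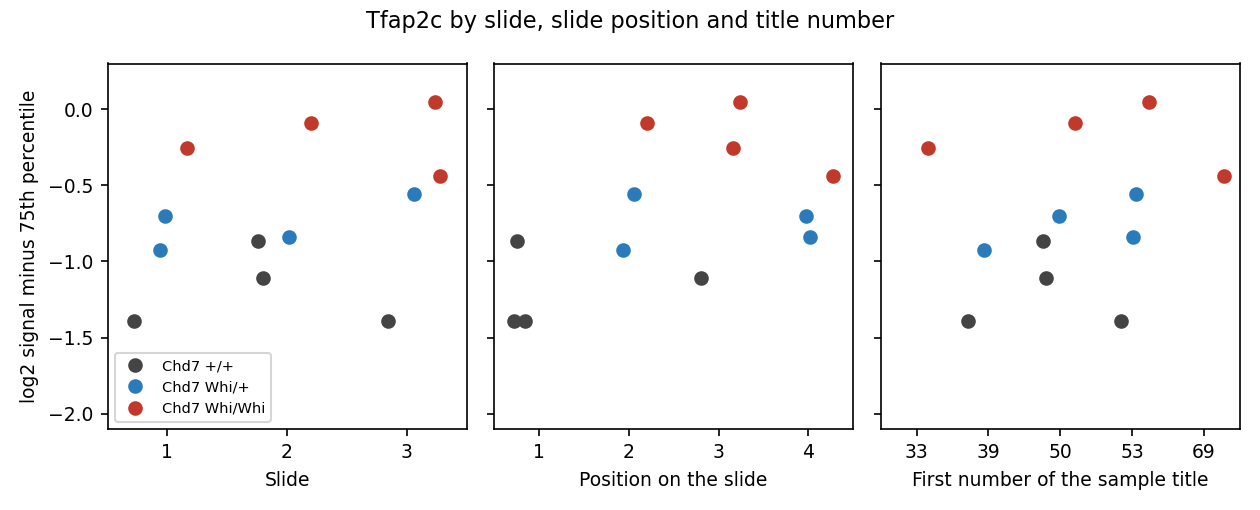
Scaled log2 signal of Tfap2c (vertical axis) on each array, by slide, by position on the slide and by the first number of the sample title (whose meaning the labels do not give), coloured by genotype. The homozygous points lie highest within each of the 3 slides, and all 3 arrays at position 1 are wild type.

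Tfap2a, the member with roles in neural crest and the face, was read by 2 probes, whose differences had the same sign in each comparison. The brighter probe (A_55_P1964812, transcript NM_001122948) read -0.32, -0.29, 0.24 and -0.16 in wild type. It read -0.14, -0.34, -0.05 and -0.34 in heterozygotes and 0.02, 0.17, 0.14 and -0.10 in homozygotes. Wild-type replicate 3 was the highest of all 12 arrays, so homozygotes and wild type overlapped. Homozygous minus wild type was 0.19 ± 0.13 log2 units (SE; 95% interval -0.10 to 0.48; limma, adjusted p = 0.477), heterozygous minus wild type was -0.08 ± 0.13 (SE; adjusted p = 0.755) and homozygous minus heterozygous was 0.28 ± 0.13 (SE; adjusted p = 0.844). A sign opposite to that of the homozygous minus wild type value appeared with position as a block (-0.15) and without the 3 position 1 arrays (-0.18).

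The dimmer Tfap2a probe (A_55_P2199463, transcript NM_011547) read -3.63, -3.31, -2.98 and -3.67 in wild type and -3.59, -3.75, -3.71 and -3.08 in heterozygotes. In homozygotes it read -3.04, -2.78, -3.06 and -3.22. Again the homozygous and wild-type values overlapped, through wild-type replicate 3. With each probe tested on its own (27551 probes), homozygous minus wild type was 0.37 ± 0.18 log2 units (SE; limma, adjusted p = 0.341), and the other differences were -0.14 ± 0.18 (adjusted p = 0.717) for heterozygous minus wild type and 0.51 ± 0.18 (adjusted p = 0.767) for homozygous minus heterozygous.

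Tfap2b, which acts in crest derivatives, varied most among heterozygotes. Its probe (A_51_P360396, transcript NM_001025305) read 0.06, -0.03, -0.07 and -0.19 in wild type and -0.22, -0.10, 0.36 and 0.10 in homozygotes. In heterozygotes it read -0.11, 0.02, -0.66 and -0.79, and replicates 3 and 4 were the lowest 2 of the 12 arrays. Means were -0.06 ± 0.10, -0.38 ± 0.40 and 0.03 ± 0.25 (SD, n = 4) in wild type, heterozygotes and homozygotes. The homozygous minus wild type difference was 0.09 ± 0.18 log2 units (SE; 95% interval -0.31 to 0.49; limma, adjusted p = 0.831), and it was -0.01 with normexp background correction and -0.02 without homozygous replicate 3. Heterozygous minus wild type was -0.33 ± 0.18 (SE; adjusted p = 0.393) and homozygous minus heterozygous 0.42 ± 0.18 (SE; adjusted p = 0.826). The heterozygous mean lay -0.37 ± 0.16 (SE) from the midpoint, which did not pass (limma, adjusted p = 0.622, unadjusted p = 0.0384), against 7.81% of genes at an unadjusted p under 0.05.

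Tfap2e, the member of the olfactory system, gave signals near the background, and its arrays disagreed widely. Its probe (A_52_P554594, transcript NM_198960) read -5.53, -5.85, -5.40 and -6.93 in wild type, -5.35, -6.28, -7.83 and -6.96 in heterozygotes and -6.52, -5.21, -3.02 and -4.90 in homozygotes. It exceeded background clearly on all wild-type and homozygous arrays and on 2 of 4 heterozygous arrays, and processed signal ran from 5.50 to 146. The groups overlapped in every comparison. Homozygous minus wild type was 1.02 ± 0.69 log2 units (SE; 95% interval -0.48 to 2.52; limma, adjusted p = 0.472). It was 0.39 without homozygous replicate 3, which had the highest Tfap2e reading, 0.13 with normexp background correction, and -0.99, 0.42 and 2.96 on slides 1 to 3. Heterozygous minus wild type was -0.68 ± 0.69 (SE; adjusted p = 0.617) and homozygous minus heterozygous 1.69 ± 0.69 (SE; adjusted p = 0.791). The first was -0.27 without heterozygous replicate 3, -1.09 without heterozygous replicate 1 and -0.35 with normexp. The second was 1.06 without homozygous replicate 3 and 0.47 with normexp.

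Tfap2d, the midbrain member, was well above background on 3 of 12 arrays only, 1 of each genotype. Its probe (A_51_P398833, transcript NM_153154) read -6.65, -7.35, -7.01 and -8.01 in wild type, -7.21, -6.75, -7.78 and -6.72 in heterozygotes and -7.05, -7.09, -7.98 and -8.10 in homozygotes. The genotypes overlapped throughout, and processed signals lay between 4.70 and 14.7. No fold is given, because most arrays gave it no well-above-background mark.

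Counted over the family, 0 of 4 tested members passed for heterozygous minus wild type, where 0.00886% of all genes passed, and 0 of 4 passed for homozygous minus heterozygous, where 0.0133% did. At an unadjusted p under 0.05 there was 1 member (Tfap2c) in the first comparison, against 15.4% of all genes. There were 3 in the second (Tfap2b, Tfap2c and Tfap2e), against 6% of all genes. Tfap2e was tested only because its wild-type and homozygous arrays met the filter, since 2 of 4 heterozygous arrays were well above background. With probes required to be well above background on all 12 arrays, Tfap2e dropped out and the count was 2 of 3 tested members. The main count of 3 became 1 without homozygous replicate 3, without heterozygous replicate 4, with normexp background correction and with position as a block. It became 4 with quantile normalization, with median scaling, with each probe tested on its own and with a trended, robust variance. Under the other alternatives it was 2 or 3. These comparisons share the heterozygous arrays.

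**Figure D3:**
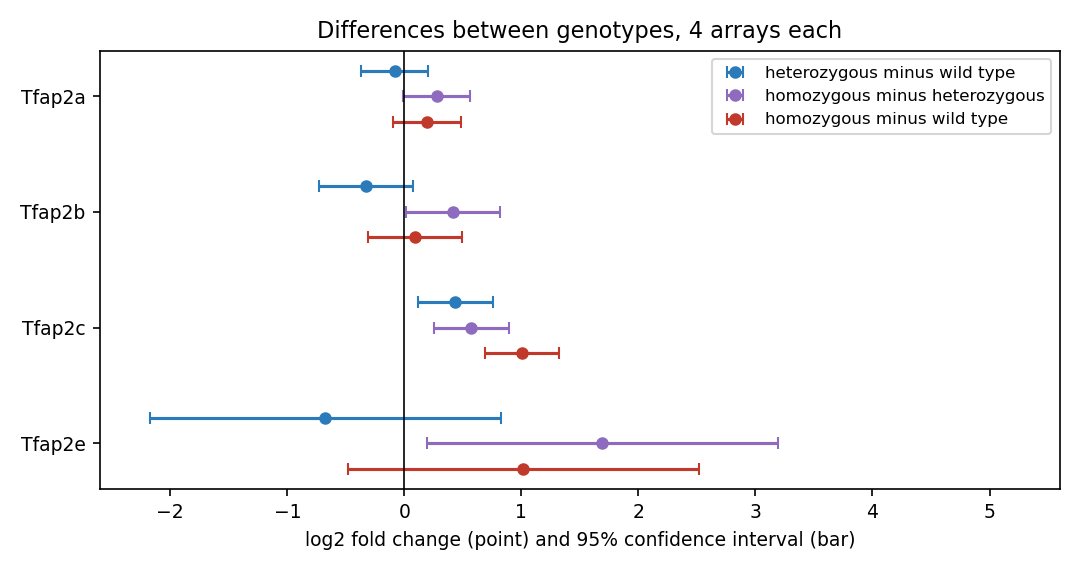
Difference between genotypes in log2 units (horizontal axis) for the 4 tested AP-2 genes, with points for the fit and bars for 95% confidence intervals, 4 arrays per genotype. The Tfap2c interval of 0.69 to 1.32 for homozygous minus wild type lies above 0, and the Tfap2e intervals are the widest.

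Whether the members changed by different amounts was asked within arrays, since a difference between 2 genes on the same array does not depend on the scaling. The level of Tfap2a minus that of Tfap2c was 1.06 ± 0.34 log2 units in wild type and 0.24 ± 0.10 (SD, n = 4) in homozygotes, a change of -0.81 with no overlap between the groups (exact two-sided permutation test, p = 0.0286, adjusted p = 0.171). Tfap2b minus Tfap2c was 1.13 ± 0.26 in wild type and 0.22 ± 0.25 (SD, n = 4) in homozygotes, a change of -0.91 (exact permutation, p = 0.0286, adjusted p = 0.171), and its change in heterozygotes was -0.76 (p = 0.0286, adjusted p = 0.171). With 4 arrays against 4, 0.0286 is the smallest p these permutations can give, and over 18 tests no pair passed after Benjamini-Hochberg adjustment. Tfap2c minus Tfap2e was 4.74 ± 0.65 in wild type and 4.73 ± 1.33 (SD, n = 4) in homozygotes, a change of -0.01 (exact permutation, p = 1). With Tfap2e near the background and this spread, it does not show that Tfap2c and Tfap2e changed alike.

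Over the 12 arrays the pattern of Tfap2c was most like that of Gfra2, the receptor subunit for neurturin, among 15022 named genes (Pearson r = 0.977). Tle2, a Groucho corepressor, followed with r = 0.947. Both were chosen for their high correlation among all genes, and the arrays share genotype and slide, so no p is given. Gfra2 rose by 1.16 ± 0.14 log2 units (SE) in homozygotes (limma, adjusted p = 0.00254) and Tle2 by 0.71 ± 0.13 (adjusted p = 0.0231). After the mean of each genotype was subtracted, Gfra2 was again highest with r = 0.932, followed by Mon1a with 0.926 and Gfer with 0.915.

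For Tfap2a the closest patterns were those of Arhgef19 (r = 0.885), Lcat (0.864) and Tmprss13 (0.840), and for Tfap2b those of Prom2 (0.937), Clec18a (0.904) and Pcbp3 (0.896). For Tfap2e they were those of Ahrr (0.922), Epha8 (0.892) and Megf6 (0.879). After the genotype means were subtracted, Arhgef19, Slc5a4a and Gsap were closest to Tfap2a (0.887, 0.882 and 0.879), Kif21b, Zfp423 and 1810009A15Rik to Tfap2b (0.948, 0.948 and 0.947), and Igsf21, Megf6 and Sh2d5 to Tfap2e (0.935, 0.918 and 0.911). These are descriptions too, with no p.

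Among the partners and inhibitors of AP-2 proteins, none of 12 tested genes passed in any of the 3 comparisons. In homozygous minus wild type 7 had a higher and 5 a lower value, with a median of 0.01 against 0.02 over all genes. Ep300, a coactivator, had a value of 0.26 ± 0.10 log2 units (SE; limma, adjusted p = 0.236). In heterozygous minus wild type the median was 0.14 against 0.04, with Wwox, which binds AP-2 proteins in the cytoplasm, at 0.53 ± 0.12 (adjusted p = 0.237). In homozygous minus heterozygous Kctd15, an inhibitor of AP-2 activation, stood at -0.32 ± 0.10 (adjusted p = 0.663). The Cited coactivators on this list did not pass either.

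Of 25 genes that AP-2 proteins bind or have been proposed to control, 24 were tested. In homozygotes 1 rose and 1 fell, against 0.487% and 0.864% of all genes. Alx1, a homeobox gene of the facial mesenchyme, fell by 2.13 ± 0.21 log2 units (SE; limma, adjusted p = 0.000602). Sox10, a factor of migrating crest and glia, rose by 1.17 ± 0.20 (adjusted p = 0.0155). The group means of Alx1 were -1.06, -2.02 and -3.19 in wild type, heterozygotes and homozygotes, and those of Sox10 were -0.64, -0.03 and 0.53. Of the tested genes 13 had a higher and 11 a lower value, with a median of 0.04 against 0.02 over all genes. This list and those below were chosen with earlier results of these data known, so their counts are descriptions. Mitf, the melanocyte factor, was at -0.73 ± 0.18 (adjusted p = 0.0747) and Kit, a receptor of melanoblasts and germ cells, at 0.48 ± 0.12 (adjusted p = 0.0878). None passed in the other comparisons, where the smallest p belonged to Alx1, at -0.96 ± 0.21 in heterozygous minus wild type (limma, adjusted p = 0.232) and -1.17 ± 0.21 in homozygous minus heterozygous (adjusted p = 0.129).

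The palindrome was held by the promoter windows of 6 of the 16 listed targets with a window (37.5%) and of 5 of 15 neural border and crest genes (33.3%), against 18.5% of all genes with a window. Over all 10 lists the share ran from 11.1% (yolk sac endoderm and liver) to 45.5% (germ cell markers), with 42.9% of AP-2 partners and inhibitors and 40% of olfactory placode genes, so a high share was not particular to the targets. Matches with 10 flanking bases on each side follow as examples for Zic1 and Tle2, which passed the test in homozygotes, and for the listed targets Kit and Mitf, with the palindrome in capitals, 5′ to 3′ on the gene strand. The match of Zic1 lay at chr9:91365907-91365935 (minus), of Kit at chr5:75574843-75574871 (plus), of Mitf at chr6:97929833-97929861 (plus) and of Tle2 at chr10:81575226-81575254 (plus), all on GRCm38.p6 from RefSeq.
Zic1: tggcgcggcgGCCCCGGGCggggtgtgtg
Kit: cagcccgagaGCCCCGGGCactaggcagc
Mitf: ttcactcttcGCCAAGGGCttgcagaaca
Tle2: ggcgggtcccGCCCGCGGCtcccagccga
Zic1 and Kit share the same 9 letters, and Zic1 fell in homozygotes while Tle2 rose. A match is a description of the letters and no evidence of binding.

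Among 26 neural plate border and crest genes, 2 rose and 2 fell in homozygotes, against 0.487% and 0.864% of all genes. There were 7 higher and 19 lower values, with a median of -0.14 against 0.02 over all genes. Twist1, a mesenchymal factor, fell by 0.93 ± 0.12 log2 units (SE; limma, adjusted p = 0.00393) and Zic1, a neural border factor, fell by 1.53 ± 0.26 (adjusted p = 0.018). Sox10 rose as given above and Foxd3, an early crest factor, rose by 1.33 ± 0.24 (adjusted p = 0.0211). Slide position was not in the fit for these genes. The group means of Foxd3 were -2.47 in wild type, -1.80 in heterozygotes and -1.14 in homozygotes. Sox10, Mitf, Erbb3, Msx1 and Msx2 are among the genes that the target list also holds. None passed in the other comparisons, where Zic1 stood at -0.86 ± 0.26 in heterozygous minus wild type (limma, adjusted p = 0.237) and Twist1 at -0.61 ± 0.12 in homozygous minus heterozygous (adjusted p = 0.226).

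Values of other tissues that express AP-2 genes are given beside Tfap2c, since it was measured in whole embryos. Of 24 surface ectoderm and epidermal genes none passed in homozygous minus wild type, 21 had a higher and 3 a lower value, and the median was 0.30 against 0.02 over all genes. Krt15 and Krt19, keratins of basal and of simple epithelium respectively, stood at 0.84 ± 0.23 (limma, adjusted p = 0.112) and 0.90 ± 0.26 (adjusted p = 0.133). The median was 0.22 in heterozygous minus wild type, where 0 of 24 passed and Krt19 stood at 0.68 ± 0.26 (adjusted p = 0.276). In homozygous minus heterozygous it was 0.20, again with 0 passing and with Grhl3, a factor of epidermal closure, at 0.58 ± 0.21 (adjusted p = 0.708). The summed level of the list ran from 28.9 to 42.8 times the 75th percentile in wild type, from 37.0 to 55.3 in heterozygotes and from 36.4 to 65.9 in homozygotes, and the groups overlapped. Krt18 weighed most in this sum, with means of 4.29, 4.66 and 4.82 scaled log2 signal in the same order. The part of surface ectoderm in the Tfap2c difference was not tested.

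Of 14 primordial germ cell markers 11 were tested and none passed, with 7 higher and 4 lower values and a median of 0.12. Kit, which the target list also holds, had the smallest p and stood at 0.48 ± 0.12 (limma, adjusted p = 0.0878). Alpl, the alkaline phosphatase of germ cells, stood at 0.28 ± 0.11 (limma, adjusted p = 0.242), and on none of the arrays was Dazl well above background. Their summed level ran from 7.55 to 16.5 in wild type, 9.62 to 19.2 in heterozygotes and 13.0 to 19.4 in homozygotes. Ifitm3, with means of 2.08, 2.99 and 3.11 in wild type, heterozygotes and homozygotes, and Tdgf1, with 1.92, 1.92 and 1.74, weighed most in it. Of 14 trophoblast markers tested (15 on the array, 16 listed) none passed, with 9 higher and 5 lower values and a median of 0.19. Tfeb stood at 0.91 ± 0.23 (adjusted p = 0.0867) and Ascl2 at 0.75 ± 0.44 (adjusted p = 0.399), and on none of the arrays was Tpbpa, the spongiotrophoblast marker, well above background. The summed trophoblast level ran from 21.5 to 45.8, 27.2 to 38.9 and 24.0 to 36.6 in wild type, heterozygotes and homozygotes. Gcm1 weighed most in this sum, with means of 5.04, 4.89 and 4.80 scaled log2 signal in the same order. The sum therefore says little about the other trophoblast markers. The part of either cell type in the Tfap2c difference was not tested.

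Set against the mean of each list on the same array, Tfap2c stood highest in homozygotes for all 4 lists. Against surface ectoderm genes it stood at 0.04 ± 0.12, 0.30 ± 0.19 and 0.73 ± 0.27 log2 units (SD, n = 4) in wild type, heterozygotes and homozygotes, and against trophoblast markers at 1.70 ± 0.19, 1.79 ± 0.31 and 2.51 ± 0.42. Against germ cell markers it stood at 0.73 ± 0.42, 0.99 ± 0.29 and 1.62 ± 0.13, and against neural border and crest genes at -0.68 ± 0.38, -0.18 ± 0.22 and 0.45 ± 0.15. These are descriptions with no p, since Tfap2c itself already differed between the groups.

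**Figure D4:**
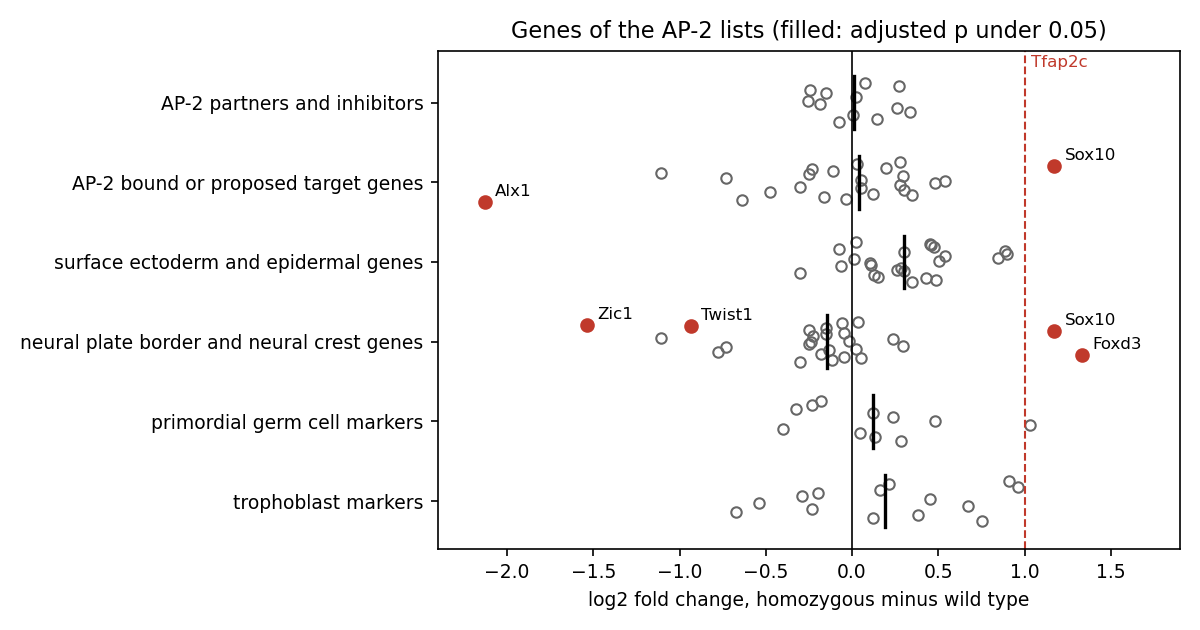
Log2 difference of homozygous minus wild type (horizontal axis) of each tested gene of 6 lists, as points, with black bars for list medians, filled points for adjusted p under 0.05 and a dashed line at the Tfap2c value. Surface ectoderm genes have a median of 0.30 and none is filled, while Alx1, Zic1, Twist1, Sox10 and Foxd3 are the filled points.

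As a check of tissue, 15 of 15 whole embryo markers were well above background on all 12 arrays. In homozygotes 2 of them fell, against 0.864% of all genes. Twist1 fell as given above, and Prrx1, a factor of limb and facial mesenchyme, fell by 1.82 ± 0.30 log2 units (SE; limma, adjusted p = 0.0129). Of the 15 markers 4 had a higher and 11 a lower value, with a median of -0.27 against 0.02 over all genes. Markers of yolk sac endoderm and liver had a higher value in homozygotes for 10 of 10 tested genes, with a median of 0.48 and none passing (Ttr at 1.11 ± 0.92, adjusted p = 0.564), and in heterozygous minus wild type also for 10 of 10, with a median of 0.83. Their summed level ran from 6.42 to 34.4 times the 75th percentile in wild type, 14.5 to 32.9 in heterozygotes and 4.64 to 80.6 in homozygotes, and the groups overlapped. Chd7 had no probe named for it, so its level was not used here to check the labels. The share of probes well above background was 69.9% to 76.4%, the 75th percentile of the processed signal was 1095 to 1721, and the number of arrays limits the precision. Replicate spots varied more on the 3 position 1 arrays (median CV 7.07% to 7.65%) than on the others (2.89% to 6.73%).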

How the data were processed

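Spots of 12 one-colour arrays had been quantified with Agilent Feature Extraction 10.7.3.1, per the submitters' processing notes, where limma is listed too. The deposited intensity values are the processed signal, corrected for background within each array per the file headers and not scaled between arrays. The log2 of the processed signal minus the 75th percentile of the array was computed here. Control spots (1377) were left out, as were 171 to 386 non-uniform or outlier spots per array, and none was saturated. Probes were named through transcript accessions in a RefSeq gene table (GRCm38.p6), 26055 of 39429 of them. The probe with the highest mean stood for a gene. Tests used limma 3.58.1 in R 4.3.3 on all 12 arrays (lmFit, eBayes, Benjamini-Hochberg, threshold 0.05), tested on simulated data, and exact permutation tests used SciPy 1.17.1. Figures were drawn with matplotlib 3.10.9.

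The members and gene lists were chosen with earlier results of these data known. Besides all members, the genes named are the 3 most correlated with each tested member, and of each list those past the threshold (at most 4) or the 2 with the smallest p. Some genes that this rule selects are not reported here. Alternatives were other background correction (normexp, offset 50, on the median spot signal), scaling, filters, probes, blocks, weights, variance models and leaving out arrays. Leaving out the 3 position 1 arrays was added after seeing the data.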

Additional observations from a re-analysis of the deposited data

How the results depend on the processing

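The count of AP-2 genes called in homozygous minus wild type (1) was 1 in 23 of 26 alternatives, and 0 with position as a block, with the replicate block of title numbers, and without the 3 position 1 arrays. It was 1 to 1 when each array was left out in turn. The counts for the other comparisons and the midpoint contrast were 0 under every alternative run. The within-array differences also gave 0, which says nothing about stability, since the smallest p of 0.0286 leaves little room to pass after adjustment over 18 tests. The labels do not say what title numbers mark, and deviations of same-number arrays from their genotype means had a median r of 0.0229 (11 pairs, -0.32 to 0.29), against 0.0210 for 37 pairs of other numbers. With the replicate block the Tfap2c difference was 1.12 ± 0.17 (SE; limma, adjusted p = 0.0801) and all-gene calls in homozygous minus wild type went from 305 to 19. Reversed signs were few, all of uncalled values. Tfap2a in homozygous minus wild type was -0.15 with position as a block and -0.18 without the position 1 arrays, Tfap2a in heterozygous minus wild type ran from -0.15 to 0.039 when arrays were left out, Tfap2b in homozygous minus wild type was -0.0060 with normexp and -0.016 to 0.18 when arrays were left out, and the Tfap2c midpoint contrast was 0.010 with position as a block. The cause was not tested. The Tfap2c difference of 1.01 lay between 0.93 and 1.12 under all alternatives, with adjusted p from 0.00263 to 0.674. Over all genes, homozygous minus wild type had 305 calls and between 19 and 529 under the alternatives, heterozygous minus wild type 2 and between 0 and 91, and homozygous minus heterozygous 3 and between 0 and 8. Normexp gave 9 higher and 82 lower calls in homozygous minus wild type, against 110 and 195. Signal near the background limits Tfap2d and Tfap2e.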

Other observations

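Lists for the tissues of Tfap2d and Tfap2e, whose probes were dim, were read as well. Of 14 dorsal midbrain genes 1 fell in homozygotes, against 0.864% of all genes, and none rose. It was Pou4f1, a factor of sensory and midbrain neurons, by 0.85 ± 0.15 log2 units (SE; limma, adjusted p = 0.0172), and 7 genes had a higher and 7 a lower value, with a median of -0.01. Of 11 olfactory placode genes tested none passed, 2 had a higher and 9 a lower value and the median was -0.30. Sp8, a factor of the olfactory region and forebrain, stood at -0.55 ± 0.15 log2 units (SE; limma, adjusted p = 0.112).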
